A study of Mus musculus with 15 samples.

Results

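The data compare mouse prostate epithelial lines labelled Myc with lines labelled NeuT, gene by gene. The comparison took the 3 arrays titled as Myc overexpression and the 3 titled as NeuT overexpression, which are 6 of the 15 arrays measured, and it included no control array. It covered the 19938 genes that a probe set of the array reads alone, out of 35556 probe sets in all.

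All cells came from the ventral prostate of FVB mice. The Myc-labelled lines are prostate epithelial cells transformed by the c-myc gene, and the NeuT lines are the same kind of cell transformed by the neuT gene. The other groups, shown only for orientation, are Ras lines, Src lines and untransduced primary cultures (control), again 3 arrays each. The lines were stable and grew in DMEM with 10% FBS, and cells were taken at 85 to 90% confluence. Controls grew in a primary culture medium until the night before harvest. The labels name neither a promoter for the introduced genes nor the number of founding cells. The study's design text gives 3 lines per oncogene. The labels do not say which cultures the arrays came from, so the p-values measure the spread between these arrays, which may be technical.

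Myc is a transcription factor that pairs with Max at E-box sequences and is known for raising genes of ribosome assembly and nucleotide synthesis. NeuT is an activated form of the rat receptor tyrosine kinase Neu, the counterpart of mouse Erbb2. It signals through the Ras, ERK and PI3K pathways, and ERK activity induces its own phosphatases and other feedback genes. In the prostate gland, basal cells carry the keratins Krt5 and Krt14, and luminal cells carry Krt8 and Krt18.

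Values are log2 expression levels of RMA-normalized arrays, on which a gene not expressed still reads a low level, and whose median over all genes and arrays was 6.47. Arrays of the same group among the 6 correlated with r from 0.9938 to 0.9962 across genes, and 6 to 31 genes were at least 2-fold apart in such a pair. A Myc-labelled and a NeuT array correlated with r from 0.975 to 0.9801, with 476 to 647 genes that far apart. One array outside the comparison stood apart: control array 3 read the kidney genes Kap at 12.10 and Umod at 11.03, against 4.83 or less and 5.70 or less in both other controls. That array enters the contrast of Myc-labelled and NeuT arrays only through the spread that all 5 groups share. It is also part of every control mean and every difference from control given below. Without it, 169 genes were higher and 305 lower in the Myc-labelled lines, close to the counts that follow.

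Between the lines, 162 genes were at least 2-fold higher in the Myc-labelled arrays and 301 at least 2-fold lower, with an adjusted p under 0.05 from limma over all 19938 genes. These are 0.813% and 1.51% of the genes tested, 2.32% in all. With no minimum fold, 1393 genes (6.99%) were higher and 1586 (7.95%) lower, 14.9% in either direction. The median difference of all genes was 0.006. For the gene lists below, a member is said to rise or fall when its adjusted p over all genes was under 0.05 with no minimum fold, so its list's count stands against 6.99% and 7.95%. In 32.0% of all genes the 3 arrays of one group lay wholly above those of the other.

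**Figure D1:**
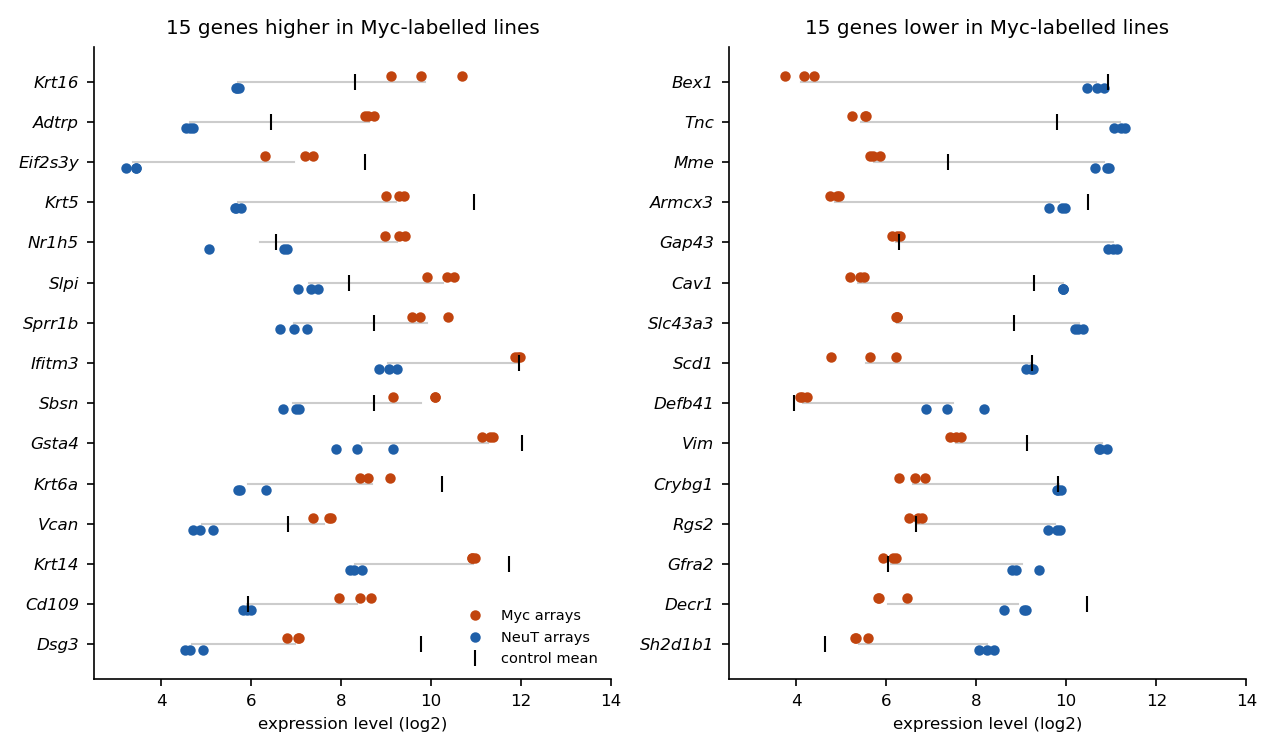
Log2 expression level (horizontal axis) of the 15 genes furthest higher (left) and the 15 furthest lower (right) in the Myc-labelled lines against NeuT. Each point is 1 array and each black tick the control mean; Krt16 to Dsg3 differ by 4.16 to 2.27, Bex1 to Sh2d1b1 by -6.56 to -2.83, and the groups overlap in none of the 30, as their selection required.

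The transduced genes were read first. The array's Myc probe set was 8.81, 8.60 and 8.94 in the Myc-labelled arrays, against 10.85, 11.03 and 11.02 in the NeuT arrays. It was thus lower in all 3 Myc-labelled arrays, with a difference of -2.18 ± 0.19 (SE; limma adjusted p = 4.16e-06), or 4.54-fold. The mean of the Myc-labelled arrays, 8.78, also lay below the control mean of 9.71, so the measured Myc RNA goes against the label. Whether this probe set reads the introduced gene was not tested, and each direction below rests on the arrays' labels. Erbb2, which NeuT corresponds to, was 8.02, 7.96 and 7.99 in the Myc-labelled arrays, against 9.13, 9.88 and 9.50 in NeuT. The difference of -1.51 ± 0.13 (adjusted p = 3.81e-06) was in the direction of the NeuT label, and the means in Ras, Src and control were 7.39, 7.92 and 7.80. Whether this mouse probe set also reads the rat gene was not tested.

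More of the genes that respond to ERK signalling fell than rose in the Myc-labelled lines. Of 24 measured, 10 fell and 1 rose, with a median of -0.33. The count of 10 was 7 to 10 when 1 array was left out, and 4 when limma tested against a 1.5-fold change. The riser was the phosphatase Dusp7, at 0.40 ± 0.11, which lost its call without Myc-labelled array 2 or 3 or any 1 NeuT array (adjusted p up to 0.109). Dusp6, the phosphatase that switches off ERK in the cytoplasm, was 6.97, 6.83 and 7.17 in the Myc-labelled arrays, against 8.59, 8.90 and 8.71 in NeuT. The groups did not overlap, and the Myc-labelled mean was also below the control mean of 7.70. Etv5, an ETS transcription factor induced by ERK, was 6.68 ± 0.17 in the Myc-labelled arrays and 8.04 ± 0.29 in NeuT (SD, n = 3 each). Errfi1, an inhibitor of the EGF receptor family, differed by -1.29 ± 0.14 (adjusted p = 2.33e-05). Ccnd1, the cyclin that drives entry into the cell cycle, was 10.64, 10.40 and 10.44 in the Myc-labelled arrays, against 11.59, 11.71 and 11.65 in NeuT. The NeuT mean of Ccnd1, 11.65, was the highest of the 5 groups, and the other 4 means lay from 10.16 to 10.81. Phlda1 and the AP-1 member Fosl1 differed by -1.14 ± 0.11 and -0.86 ± 0.12.

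Among 14 ERBB receptors and ligands, 3 fell and none rose by limma's test (0 at an unadjusted p under 0.05). Besides Erbb2 these were the ligand Hbegf and the receptor Erbb3. Hbegf was 9.26, 9.25 and 9.12 in the Myc-labelled arrays, against 10.54, 10.74 and 10.62 in NeuT, a difference of -1.42 ± 0.12 (adjusted p = 3.41e-06). Erbb3 differed by -0.63 ± 0.17. Its call was lost without Myc-labelled array 2 or 3 or NeuT array 2 or 3, with an adjusted p of up to 0.0919. Egfr, the receptor that pairs with Erbb2, was 8.41 ± 0.08 in the Myc-labelled arrays and 8.09 ± 0.08 in NeuT, and did not pass (adjusted p = 0.227). Of 17 PI3K and FOXO output genes, 3 rose and 3 fell, and each count was 1 without some single array: the risers without Myc-labelled array 3 or NeuT array 3, the fallers without any 1 NeuT array. The insulin receptor substrate Irs1 was among the fallers, at 7.83 ± 0.19 in the Myc-labelled arrays and 9.30 ± 0.01 in NeuT (difference -1.47 ± 0.22, adjusted p = 0.000325).

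The basal programme was split between both lines. Of 20 basal epithelial markers, 5 rose in the Myc-labelled lines and 5 fell, with a median of -0.04. Those that rose were keratins and a desmosomal cadherin, and those that fell were mostly the proteins that anchor basal cells to the basement membrane. Krt5 was 9.40, 9.29 and 8.99 in the Myc-labelled arrays, against 5.67, 5.65 and 5.78 in NeuT. Krt14 was 10.91, 10.98 and 10.91 in the Myc-labelled arrays, against 8.19, 8.29 and 8.46 in NeuT. Both groups were separate for these keratins, which were higher in the Myc-labelled lines by 3.53 ± 0.14 and 2.62 ± 0.15. Both were still below the control means, 10.96 for Krt5 and 11.73 for Krt14. Krt6a, a keratin of activated epidermis, and Dsg3, a desmoglein of stratified epithelium, differed by 2.76 ± 0.21 and 2.27 ± 0.18. Krt17 rose by 0.62 ± 0.17, but not without Myc-labelled array 2 or 3 or NeuT array 2 (adjusted p up to 0.111).

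Markers that ran the other way were Cd44, Dst, Itga6, Itgb4 and Lamb3. The hyaluronan receptor Cd44 was 10.63, 10.85 and 10.40 in the Myc-labelled arrays, against 11.87, 11.90 and 11.86 in NeuT. The hemidesmosome protein Dst was 8.57 ± 0.17 in the Myc-labelled arrays and 9.66 ± 0.08 in NeuT (SD, n = 3 each). The laminin-binding integrin Itga6 differed by -0.94 ± 0.17. Its partner Itgb4 and the laminin chain Lamb3 differed by -0.79 ± 0.21 and -0.54 ± 0.16. Without Myc-labelled array 1, NeuT array 2 or NeuT array 3 the fallers numbered 3, because Itgb4 and Lamb3 no longer passed (adjusted p up to 0.096 and 0.167), and Itgb4 also failed without Myc-labelled array 3. Trp63, the transcription factor that maintains basal cells, read 6.05 ± 0.18 in the Myc-labelled arrays and 6.19 ± 0.05 in NeuT, both below the control mean of 7.85, and did not pass (adjusted p = 0.65). In such bulk samples, fewer cells of a type and less RNA per cell cannot be told apart.

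Of the simple epithelial keratins, Krt7, Krt8, Krt18 and Krt19 read above 10 in both lines. Krt8 was 12.28, 12.48 and 12.40 in the Myc-labelled arrays, against 12.81, 12.87 and 12.88 in NeuT. It was the one keratin of 6 in this list that passed, at -0.47 ± 0.10 (adjusted p = 0.00557). Krt18, its partner, was 11.56 ± 0.08 in the Myc-labelled arrays and 12.25 ± 0.09 in NeuT but did not pass (adjusted p = 0.674). Its standard error of 0.68 draws on all 5 groups, and the 3 Ras arrays read 9.83, 6.58 and 5.80. When the 6 arrays alone were fitted, 3 of the 6 keratins fell. Of 14 luminal and secretory prostate markers, 2 fell and 1 rose, Fkbp5, which lost its call without Myc-labelled array 1 or 3 or any 1 NeuT array (adjusted p up to 0.115). Prom1, a membrane protein of luminal progenitors, fell by 1.49 on the log2 scale in the Myc-labelled lines, which read 6.20, 6.67 and 6.98, against 8.15, 8.11 and 8.05 in NeuT. The secreted protein Wfdc2 differed by -0.50 ± 0.09.

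Krt16, Sprr1b, Sbsn and Slpi, genes known from stratified or secretory epithelia, were among the 15 furthest higher in the Myc-labelled lines. Krt16, another keratin of activated epidermis, was 9.10, 10.69 and 9.78 in the Myc-labelled arrays, against 5.67, 5.74 and 5.69 in NeuT. The difference was 4.16 ± 0.36, with the Myc-labelled arrays spread over more than a log2 unit and the NeuT arrays nearly equal. Sprr1b, a cornified envelope precursor, was 9.90 ± 0.42 in the Myc-labelled arrays and 6.95 ± 0.30 in NeuT. Sbsn (suprabasin) differed by 2.85 ± 0.23, and Slpi, a secreted inhibitor of leukocyte elastase, by 2.97 ± 0.20. The family member Sprr1a, singled out after its values were seen, ran the other way: it was 8.16, 10.00 and 9.61 in the Myc-labelled arrays, against 10.98, 11.10 and 11.12 in NeuT. S100a8 and S100a9, subunits of calprotectin and chosen in the same way, differed by 1.79 ± 0.39 and 1.30 ± 0.28. The late markers Ivl and Lor, also looked up afterwards, read 6.10 ± 0.25 and 5.79 ± 0.19 in the Myc-labelled arrays, 5.93 ± 0.04 and 5.93 ± 0.04 in NeuT, and did not pass (adjusted p = 0.847 and 0.484).

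More genes of the mesenchymal transition fell than rose in the Myc-labelled lines. Of 24 measured, 9 fell and 1 rose, with a median of -0.16, and leaving out any 1 array kept 8 fallers. Tnc, the matrix glycoprotein tenascin C, was 5.56, 5.52 and 5.25 in the Myc-labelled arrays, against 11.22, 11.07 and 11.30 in NeuT. The difference was -5.75 ± 0.17, and since the Myc-labelled arrays lay below the median level of all genes, 6.47, where RMA values can hold background, no exact fold is given here or for other genes with 1 group below it. Vim, the intermediate filament of mesenchymal cells, was 7.43, 7.67 and 7.54 in the Myc-labelled arrays, against 10.72, 10.91 and 10.74 in NeuT. Vim was below the control mean of 9.12 in the Myc-labelled arrays and above it in the NeuT arrays. N-cadherin, Cdh2, was 5.81 ± 0.17 in the Myc-labelled arrays and 8.04 ± 0.09 in NeuT (difference -2.23 ± 0.10). The transcription factors Twist1 and Snai2 differed by -1.72 ± 0.13 and -1.31 ± 0.14. For Snai2, both lines were below the control mean of 8.66, at 5.95 and 7.26.

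The 1 riser was S100a4, a calcium-binding protein of motile cells, which was 11.44, 11.03 and 11.13 in the Myc-labelled arrays, against 9.68, 9.60 and 9.39 in NeuT (1.65 ± 0.15, adjusted p = 5.61e-06). When the 6 arrays alone were fitted, 4 members of the list rose. Vcan, the matrix proteoglycan versican, which the list did not hold, was also higher, at 7.63 ± 0.21 in the Myc-labelled arrays and 4.91 ± 0.23 in NeuT. Cd109, a membrane protein that binds TGF-beta, differed by 2.43 ± 0.23. Of 18 integrins, 6 fell and none rose by limma's test (1 at an unadjusted p under 0.05). The fallers included Itgb6, which pairs with Itgav on epithelia (-1.03 ± 0.11), and Itgav itself (-0.61 ± 0.13). Without Myc-labelled array 1 the integrin count was 3. Of 21 matrix proteases and inhibitors, 6 fell and 2 rose; the 2 risers became 1 or 0 without any 1 array. The carboxypeptidase Cpa4 was furthest lower at -2.53.

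Epithelial adhesion genes changed in both directions. Of 34 junction and identity genes, 4 rose and 5 fell, with a median of -0.07. E-cadherin, Cdh1, was 9.51, 9.53 and 9.70 in the Myc-labelled arrays, against 10.34, 10.51 and 10.50 in NeuT. Both lines were below the control mean of 11.16, and the difference of -0.87 ± 0.13 (adjusted p = 0.000426) had the same sign as that of Cdh2. The splicing factor Esrp1 also fell, by 0.87 on the log2 scale, while the adhesion protein Epcam (0.45 ± 0.08), the tight junction protein Ocln (0.57 ± 0.12) and the transcription factor Grhl1 (0.59 ± 0.10) rose. The 5 fallers numbered 2 to 4 when 1 array was left out, with 2 or 3 without Myc-labelled array 2 or 3 or any NeuT array, and 11 when the 6 arrays alone were fitted.

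**Figure D2:**
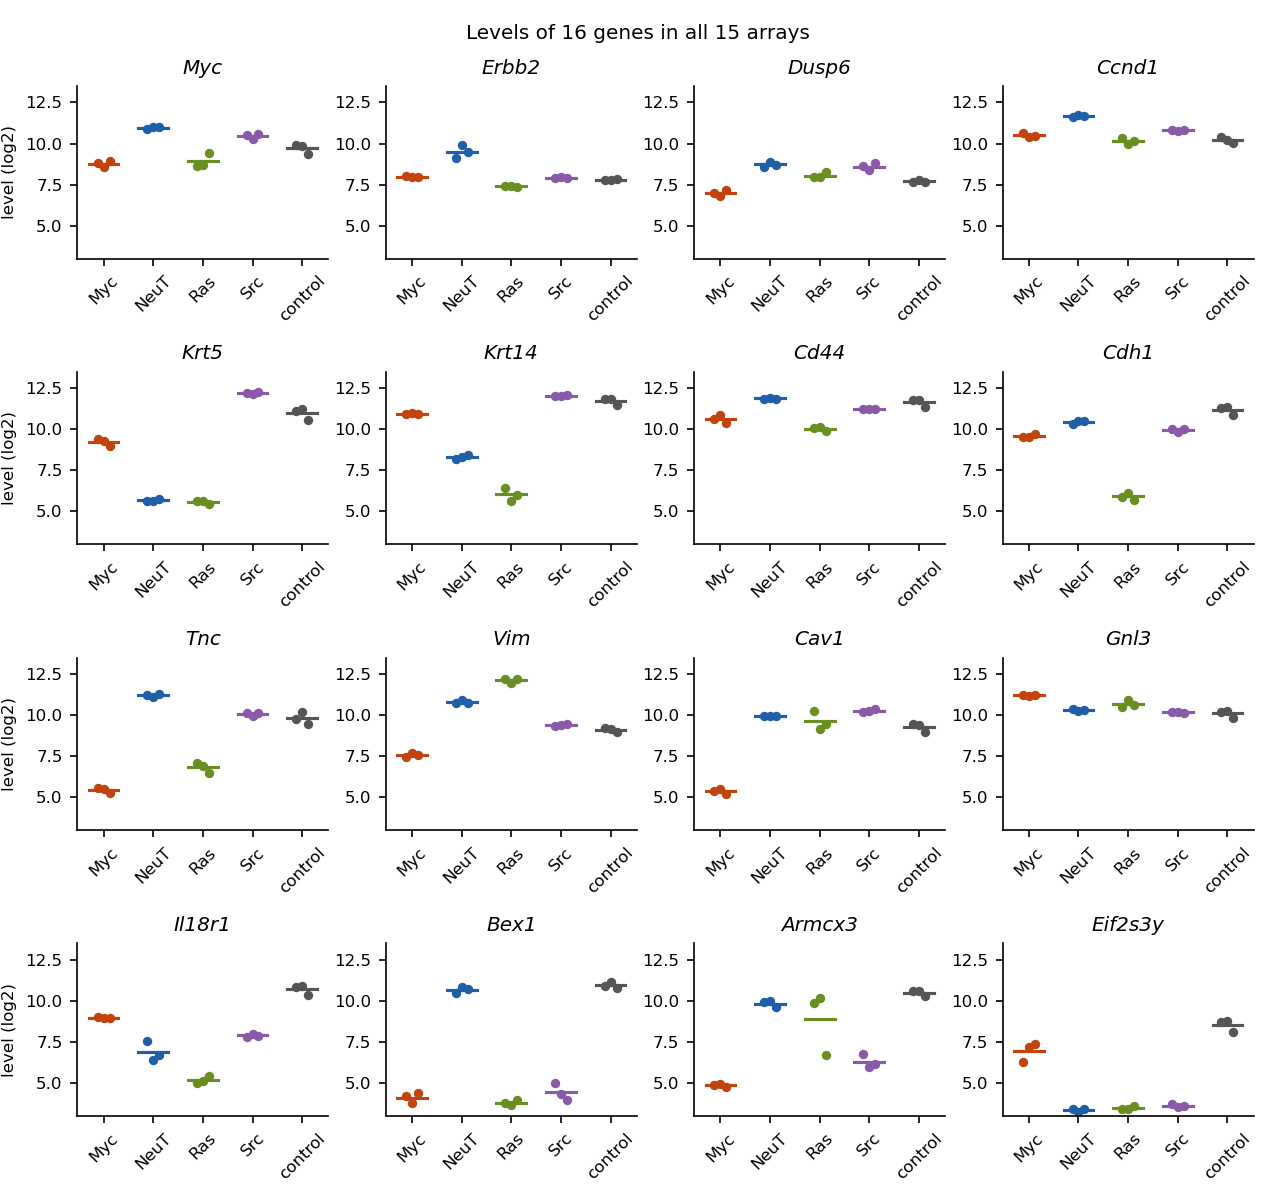
Log2 levels of 16 genes in all 15 arrays, in the order Myc-labelled, NeuT, Ras, Src and control; points are arrays and bars group means. Krt5 averages 9.23 in the Myc-labelled arrays and 5.70 in NeuT against 10.96 in control, and Bex1 averages 4.11 and 10.67 against 10.93.

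Cav1, which builds the coat of caveolae, was among the genes furthest lower in the Myc-labelled lines. It was 5.41, 5.51 and 5.20 in the Myc-labelled arrays, against 9.93, 9.92 and 9.93 in NeuT. The Myc-labelled arrays lay apart from every other array, since the Ras, Src and control means were 9.62, 10.27 and 9.29. The difference from NeuT was -4.56 ± 0.21 (adjusted p = 1.03e-08). Its partner genes were looked up after these values were seen. Cav2, the caveolin that assembles with Cav1 in these structures, was 8.95 ± 0.15 in the Myc-labelled arrays and 8.83 ± 0.21 in NeuT and did not pass (adjusted p = 0.677). The coat protein Cavin1 fell by 1.04 on the log2 scale. Cavin2 differed by -1.19 ± 0.36, but lost its call without any 1 of the 6 arrays (adjusted p up to 0.158), and Cavin3 did not pass (-0.18 ± 0.12).

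The BEX, TCEAL and ARMCX genes, a family of small X-linked genes that lie together on chromosome X and are best known from brain, included 2 of the 4 genes furthest lower in the Myc-labelled lines. Of 16 measured, 9 fell and none rose by limma's test (0 at an unadjusted p under 0.05), with a median of -0.90 beside 0.006 for all genes. The fallers numbered 7 or 8 when 1 array was left out and 4 when dim genes were left out. Bex1 was 4.18, 3.76 and 4.39 in the Myc-labelled arrays, against 10.47, 10.84 and 10.69 in NeuT. The difference was -6.56 ± 0.22, the Ras and Src means of 3.80 and 4.43 were also low, and the control mean was 10.93. Armcx3, which codes for a protein of the mitochondrial outer membrane, was 4.91, 4.96 and 4.75 in the Myc-labelled arrays, against 9.90, 9.97 and 9.61 in NeuT. All 3 of its probe sets were lower, with differences of -4.96, -3.71 and -2.84. The place of Armcx3 among the 4 furthest lower rests on the first of these, the brightest. Armcx4 was 5.65 ± 0.14 in the Myc-labelled arrays and 7.90 ± 0.11 in NeuT, and Armcx1 5.91 ± 0.12 and 7.31 ± 0.03 in the same groups. Bex4 and Tceal8 differed by -2.00 ± 0.31 and -1.23 ± 0.16, and Tceal1 by -1.48 ± 0.42, which lost its call without any 1 of the 6 arrays (adjusted p up to 0.0823). Bex3 was high in both lines, at 12.00 ± 0.10 in the Myc-labelled arrays and 12.05 ± 0.03 in NeuT (adjusted p = 0.862).

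RefSeq promoter windows (GRCm38.p6), from 250 bases before to 50 after the start of a gene, were searched for the E-box that Myc and Max bind, CACGTG, which reads the same on both strands. The motif stood in 11 of the 17 windows of the family (64.7%), against 1579 of 19116 windows of all measured genes (8.26%). It stood in windows of genes that fell (Bex1, Bex4, Tceal1, Tceal8, Armcx1 and Armcx4) and of genes that did not pass (Bex3, Tceal5, Tceal6 and Armcx6). The windows of Bex2 and Armcx2, which fell, and of Bex6, Tceal9 and Armcx5, which did not pass, lacked it, and Armcx3 had no window in the table. Stretches of 30 bases around it are shown for 5 that fell and 2 that did not pass, so that windows of both kinds can be set side by side. They are written 5′ to 3′ on the gene's strand with the E-box in capitals.
Bex1 (chrX:136215499-136215528, minus strand, difference -6.56): tgacgcaagtggCACGTGactagcccacgc
Bex4 (chrX:136138975-136139004, plus strand, difference -2.00): tgacgcaagtggCACGTGactagcccacgc
Armcx4 (chrX:134686504-134686533, plus strand, difference -2.25): acgcggagccccCACGTGacccggagctgc
Armcx1 (chrX:134717923-134717952, plus strand, difference -1.40): tgacgtgcccctCACGTGagccgaagccta
Tceal8 (chrX:136172217-136172246, minus strand, difference -1.23): tgacgcgatcctCACGTGaccagcagtcga
Bex3 (chrX:136270268-136270297, plus strand, not passing): acgcagggccctCACGTGacccggggctgc
Armcx6 (chrX:134751428-134751457, minus strand, not passing): tgacgtggctgtCACGTGaccaagagccgc
The 30 bases of Bex1 and Bex4 were identical. A match to the motif is a description of the sequence and no measure of binding, and cross-hybridisation between such similar genes was not examined.

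The windows of other genes were searched in the same way. The motif stood in 14.4% of the windows of genes at least 2-fold higher in the Myc-labelled lines (24 of 167) and in 9.35% of those at least 2-fold lower (29 of 310). Among those of the 15 genes furthest higher that had a window in the table, the motif was seen in Adtrp and Slpi. That look at single genes passed over windows on chromosome 18 and matches within 12 bases of a window's edge, so it was not complete. Adtrp, a membrane protein that regulates an inhibitor of coagulation, was 8.61, 8.53 and 8.74 in the Myc-labelled arrays, against 4.55, 4.65 and 4.71 in NeuT. Its Myc-labelled level lay above every other group mean, the next being control at 6.44, where control array 3 alone read 9.13. The difference was 3.99 ± 0.73 (adjusted p = 0.00181), and without control array 3 in the fit the adjusted p was 3.72e-12.

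Growth genes that Myc is known to raise differed by less than 2-fold between the lines. Of 30 ribosome biogenesis genes, 5 rose in the Myc-labelled lines and none fell by limma's test (2 at an unadjusted p under 0.05), with a median of 0.14. Gnl3 (nucleostemin), a nucleolar GTPase, was 11.21, 11.19 and 11.20 in the Myc-labelled arrays, against 10.39, 10.24 and 10.31 in NeuT. Its difference of 0.89 ± 0.11 (adjusted p = 9.5e-05) was the largest of the list. Nop16 and Pno1, assembly factors of the ribosome, differed by 0.61 ± 0.11 and 0.51 ± 0.12. The RNA polymerase I subunit Polr1b (0.63 ± 0.18) and the nucleolar protein Tcof1 (0.43 ± 0.12) lost their calls without Myc-labelled array 1 or 3 or NeuT array 1 or 2 (adjusted p up to 0.122 and 0.0959). The count of 5 was 3 without Myc-labelled array 1 or NeuT array 1, and 8 without control array 3. Ncl (nucleolin) was 11.69 ± 0.04 in the Myc-labelled arrays and 11.55 ± 0.12 in NeuT. The motif CACGTG stood in 18.5% of the list's windows (5 of 27).

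Of 21 genes of nucleotide, one-carbon and polyamine synthesis, 5 rose and 2 fell, with a median of 0.20. The 5 became 3 without Myc-labelled array 2 or NeuT array 2 or 3, and the 2 became 1 or 0 without any 1 array. Impdh1, of guanine nucleotide synthesis, was 7.20 ± 0.10 in the Myc-labelled arrays and 6.56 ± 0.09 in NeuT, and Gart, of purine synthesis, 9.46 ± 0.09 and 8.96 ± 0.09 in the same groups. Odc1, the first enzyme of polyamine synthesis, was 11.92 ± 0.04 in the Myc-labelled arrays and 11.73 ± 0.05 in NeuT and did not pass (adjusted p = 0.128). Of 12 Myc partners and antagonists 1 passed, Mxi1, which competes for Max, at 0.42 ± 0.10, and 2 passed without Myc-labelled array 3. Of 24 mitotic genes, 3 fell and none rose by limma's test (1 at an unadjusted p under 0.05). The fallers were the kinase Plk1 (-0.81 ± 0.13), the kinesin Kif2c (-0.71 ± 0.15) and the anaphase activator Cdc20 (-0.57 ± 0.12). The mitotic count was 7 without control array 3 and 8 when the 6 arrays alone were fitted. Of 27 DNA replication genes, 2 rose and 2 fell, and when 1 array was left out 1 to 3 rose and 0 to 2 fell, with fewer risers without Myc-labelled array 1 or NeuT array 2 or 3 and fewer fallers without any array but NeuT array 2.

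**Figure D3:**
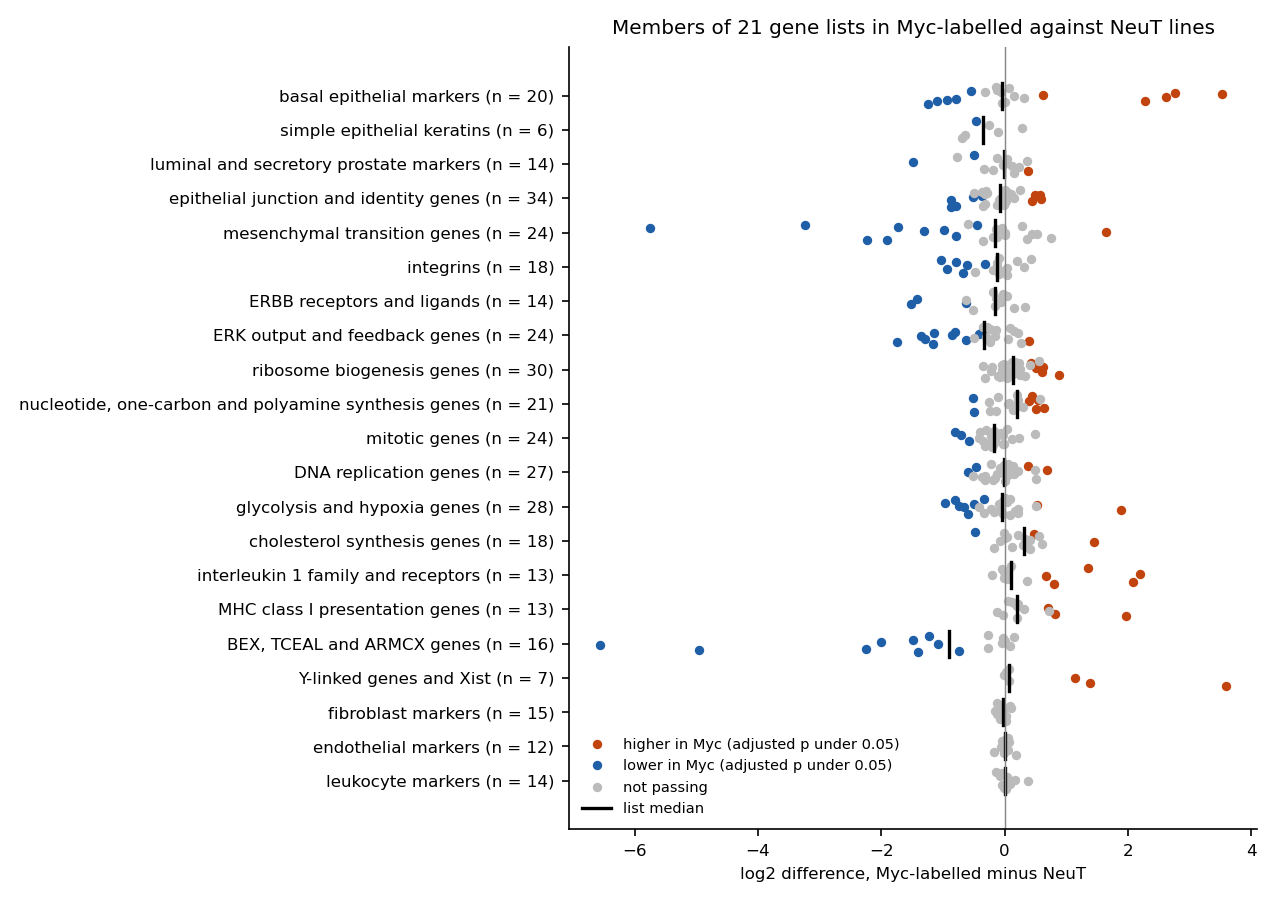
Log2 difference, Myc-labelled minus NeuT (horizontal axis), of every measured member of 21 gene lists; points are genes, coloured by direction where the adjusted p was under 0.05, and black bars list medians. The BEX, TCEAL and ARMCX median is -0.90, the ribosome biogenesis median 0.14, and no member of the fibroblast, endothelial or leukocyte lists passed.

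Genes of lipid metabolism differed in both directions. Scd1, the desaturase that makes oleate, was 4.79, 5.63 and 6.22 in the Myc-labelled arrays, against 9.27, 9.22 and 9.10 in NeuT. The Ras, Src and control means were 8.89, 7.96 and 9.24, so the Myc-labelled arrays were the low ones. Elovl6, which elongates fatty acids, was higher by 0.97 ± 0.20. Decr1, a mitochondrial enzyme that helps break down unsaturated fatty acids, was 6.04 ± 0.37 in the Myc-labelled arrays and 8.94 ± 0.27 in NeuT. Of 18 cholesterol synthesis genes, 2 rose and 1 fell, with 14 differences above 0 and a median of 0.32. Idi1, an isomerase of that pathway, differed by 1.46 ± 0.30. The 2 risers became 1 without Myc-labelled array 1 or 3 or NeuT array 2 or 3, and 8 when the 6 arrays alone were fitted.

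Of 28 glycolysis and hypoxia genes, 7 fell and 2 rose, and 5 to 7 fell when 1 array was left out. The fallers included the phosphofructokinase Pfkp (-0.97 ± 0.19), the glucose transporter Slc2a1 (-0.81 ± 0.16) and the aldolase Aldoa (-0.59 ± 0.11), all under 2-fold. The prolyl hydroxylase Egln3, which tags hypoxia-inducible factors, ran the other way at 7.09 ± 0.26 in the Myc-labelled arrays and 5.19 ± 0.17 in NeuT. Gsta4, a glutathione transferase that clears lipid peroxidation products, was 11.30, 11.36 and 11.13 in the Myc-labelled arrays, against 7.88, 9.15 and 8.35 in NeuT. NeuT was the lowest of the 5 groups for Gsta4, and the control mean was 12.03.

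Secreted signals differed in both directions. Of 13 interleukin 1 family members and receptors, 5 rose and none fell by limma's test (0 at an unadjusted p under 0.05), and the count was 3 without Myc-labelled array 3. The receptor Il18r1 averaged 8.98 ± 0.02 in the Myc-labelled arrays and 6.90 ± 0.61 in NeuT (SD, n = 3 each), with a control mean of 10.69. Il1f9, an epithelial cytokine of the family, was 6.24, 7.36 and 8.61 in the Myc-labelled arrays, against 5.14, 5.25 and 5.24 in NeuT. The Myc-labelled arrays were far apart for Il1f9 but all above NeuT. The receptor antagonist Il1rn differed by 1.35 ± 0.14. Il1a was high in both lines, at 11.21 ± 0.21 in the Myc-labelled arrays and 10.84 ± 0.03 in NeuT, and did not pass (adjusted p = 0.292), while the control mean was 5.88. Of 22 other cytokines and chemokines, 2 fell and 3 rose, and the risers became 1 without Myc-labelled array 3 or NeuT array 1. Csf2, a growth factor of granulocytes and macrophages, was 6.77, 6.94 and 7.08 in the Myc-labelled arrays, against 9.06, 8.84 and 9.01 in NeuT. Lif, a cytokine of the interleukin 6 family, differed by -1.31 ± 0.18.

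Single antiviral genes differed in both directions, and the antigen presentation genes that passed were all higher in the Myc-labelled lines. Ifitm3, a membrane protein that blocks virus entry, was 11.93, 11.86 and 11.98 in the Myc-labelled arrays, against 8.83, 9.06 and 9.24 in NeuT. The Ras, Src and control means were 12.13, 12.53 and 11.95, so the NeuT arrays were the ones set apart. Ifit2, another interferon-induced gene, was 5.07, 5.22 and 5.20 in the Myc-labelled arrays, against 7.39, 7.24 and 7.21 in NeuT, the opposite direction. Of 23 interferon response genes, 1 rose and 2 fell, or 13.0% in either direction, near the 14.9% of all genes. When the 6 arrays alone were fitted, 7 fell. The riser, Bst2, lost its call without Myc-labelled array 1 or 3 or any NeuT array (limma adjusted p up to 0.127). Of 13 genes of MHC class I presentation, 3 rose and none fell by limma's test (0 at an unadjusted p under 0.05). Erap1, which trims peptides for presentation, was 7.77 ± 0.11 in the Myc-labelled arrays and 5.79 ± 0.08 in NeuT.

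Several further genes were above the median level in the NeuT arrays and much lower in the Myc-labelled arrays. Mme, the membrane peptidase CD10, was 5.86, 5.65 and 5.71 in the Myc-labelled arrays, against 10.95, 10.90 and 10.65 in NeuT. Mme is also abundant in kidney, and control array 3 read 10.26. The difference was -5.10 ± 0.79 (adjusted p = 0.000489), and without control array 3 in the fit the adjusted p was 2.33e-12. Gap43, a growth cone protein of neurons, was 6.25, 6.12 and 6.31 in the Myc-labelled arrays, against 11.04, 11.14 and 10.92 in NeuT. Its control mean was 6.29, near the Myc-labelled arrays. The NeuT mean lay above the Ras mean by 4.64 and above the Src mean by 2.35 on the log2 scale. The Src lines were raised too, since the Myc-labelled mean differed from theirs by -2.46. Slc43a3, a transporter of purine bases, differed by -4.05 ± 0.70 and the G protein regulator Rgs2 by -3.08 ± 0.44. Defb41, a beta-defensin, was 4.09, 4.14 and 4.23 in the Myc-labelled arrays, against 8.18, 7.34 and 6.89 in NeuT, while every other group mean was 4.42 or less.

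Gfra2, a co-receptor for neurturin, and Sh2d1b1, an SH2 adaptor, differed by -2.93 ± 0.30 and -2.83 ± 0.27. Crybg1, a protein with crystallin-like domains, had a difference of -3.23 ± 0.15 on its brighter probe set, while its second probe set did not pass (0.04, adjusted p = 0.903). Of 13 oncofetal and imprinted genes, 5 fell and 3 rose. The imprinted gene Peg3 was 5.25 ± 0.22 in the Myc-labelled arrays and 7.70 ± 0.18 in NeuT, and the imprinted gene Mest 7.54 ± 0.12 and 6.01 ± 0.14 in the same groups. The RNA-binding protein Igf2bp1 and the chromatin protein Hmga2 differed by -2.00 ± 0.12 and -1.32 ± 0.10. The 3 risers became 1 without NeuT array 2. Nr1h5, a nuclear receptor related to the bile acid receptor, was 9.30, 9.43 and 8.97 in the Myc-labelled arrays, against 6.80, 5.06 and 6.73 in NeuT. NeuT array 2 stood below the other 2 for this gene, and the Myc-labelled arrays above all 3.

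Some genes of chromosome Y also differed. Of 7 measured genes in a list of Y-linked genes and Xist, 3 rose and none fell by limma's test (0 at an unadjusted p under 0.05), and Usp9y, Zfy1, Zfy2 and Xist did not pass. The 3 were too dim to be tested when dim genes were left out. Eif2s3y, a translation factor gene of chromosome Y, was 6.30, 7.20 and 7.38 in the Myc-labelled arrays, against 3.44, 3.23 and 3.44 in NeuT. The NeuT arrays, like the Ras and Src means of 3.47 and 3.62, read at the low end of the scale, and the control mean was 8.53. Kdm5d, a histone demethylase, was 5.42, 6.41 and 6.24 in the Myc-labelled arrays, against 4.64, 4.53 and 4.77 in NeuT, and Uty, a related enzyme, differed by 1.15 ± 0.14. For all 3 genes the Myc-labelled mean lay between NeuT and control, and leaving out any 1 array kept all 3 calls. Xist, which silences one X chromosome in female cells, was 4.71 ± 0.13 in the Myc-labelled arrays and 4.72 ± 0.05 in NeuT. Which share of the cells carried the chromosome was not measured.

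Genes lower in the Myc-labelled lines also lay side by side on chromosome 4. In the RefSeq gene order (GRCm38.p6), 3 runs of at least 4 neighbouring genes were all at least 2-fold different in one direction, and all 3 were on chromosome 4 and lower in the Myc-labelled lines. They ran from Zfp37 to Prpf4 (6 genes), from Lurap1l to Zdhhc21 (5 genes) and from Haus6 to Dennd4c (4 genes). Lurap1l lost its call without Myc-labelled array 2 or NeuT array 2 (adjusted p up to 0.0646). Chromosome 4 held 63 of the 301 genes at least 2-fold lower and 3 of the 162 higher. These were 5.46% and 0.26% of its 1154 genes, against 1.51% and 0.813% of all genes.

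Blocks of 25 neighbouring genes, a view chosen after these runs were seen, gave a wider picture. They were cut at fixed counts of genes, so their edges do not mark where a stretch begins or ends. Among 399 such blocks of genes at or above the median level, the middle 95% had medians from -0.28 to 0.34. The highest block median was 0.55. Adjoining blocks of chromosome 14, from Abhd6 to Slc39a2, had medians from 0.31 to 0.53. In each of these, 11 to 15 of 25 genes rose, against 6.99% of all genes. Their NeuT medians lay from -0.59 to -0.19 relative to control. Gnl3, named below 2-fold among the growth genes, is the last gene of 1 of them. The lowest 2 blocks adjoined each other on chromosome 4, Tmem245 to Alad at -1.16 and Pole3 to Rraga at -1.06. Of their 50 genes, 42 fell (84.0%) and none rose by limma's test (0 at an unadjusted p under 0.05), against 13.7% that fell among all 10057 genes at this level, and 30 were at least 2-fold lower, which is 9.97% of all 301. Since the blocks were chosen for these values, the counts describe them and test nothing. The 6 blocks before them on the chromosome had medians from -0.59 to -0.32. Of the other 576 chromosome 4 genes at this level, 160 fell and 11 rose, with a median of -0.16. They include the nearest neighbours of the 2 blocks, Ctnnal1 (-1.64) before Tmem245 and Haus6 (-1.37), Plin2 (-1.78) and Dennd4c (-1.73) after Rraga. Esrp1, Decr1, Tpm2, Kif2c, Cdc20, Slc2a1 and Errfi1, named under other themes as lower in the Myc-labelled lines, are among these 576.

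The NeuT arrays lay further from control than the Myc-labelled arrays for 35 of the 50 genes, and above control for 45. Over the 50 genes the median difference from the control mean was -0.16, -0.19 and -0.18 in the Myc-labelled arrays, against 0.95, 0.88 and 0.85 in NeuT. The Ras and Src medians were -0.18 and -0.20. Some genes differed from control in both lines, or mainly in the Myc-labelled one. Tnc, described above, differed from control by -4.36 in the Myc-labelled arrays and by 1.39 in NeuT, and Lurap1l by -1.90 and -0.85 in the same groups. Zdhhc21, a palmitoyltransferase, was 8.41, 8.43 and 8.11 in the Myc-labelled arrays, against 10.64, 10.60 and 10.49 in NeuT, and the means differed from control by -1.03 in the Myc-labelled arrays and 1.23 in NeuT. The copper transporter Slc31a1 was 8.44 ± 0.19 in the Myc-labelled arrays and 9.97 ± 0.11 in NeuT. The transcription factor Nfib differed by -1.05 ± 0.08. Plin2, which coats lipid droplets and lies beyond these blocks, was 10.60 ± 0.21 in the Myc-labelled arrays and 12.37 ± 0.08 in NeuT. DNA copy number was not measured, and its part in these differences was not tested.

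**Figure D4:**
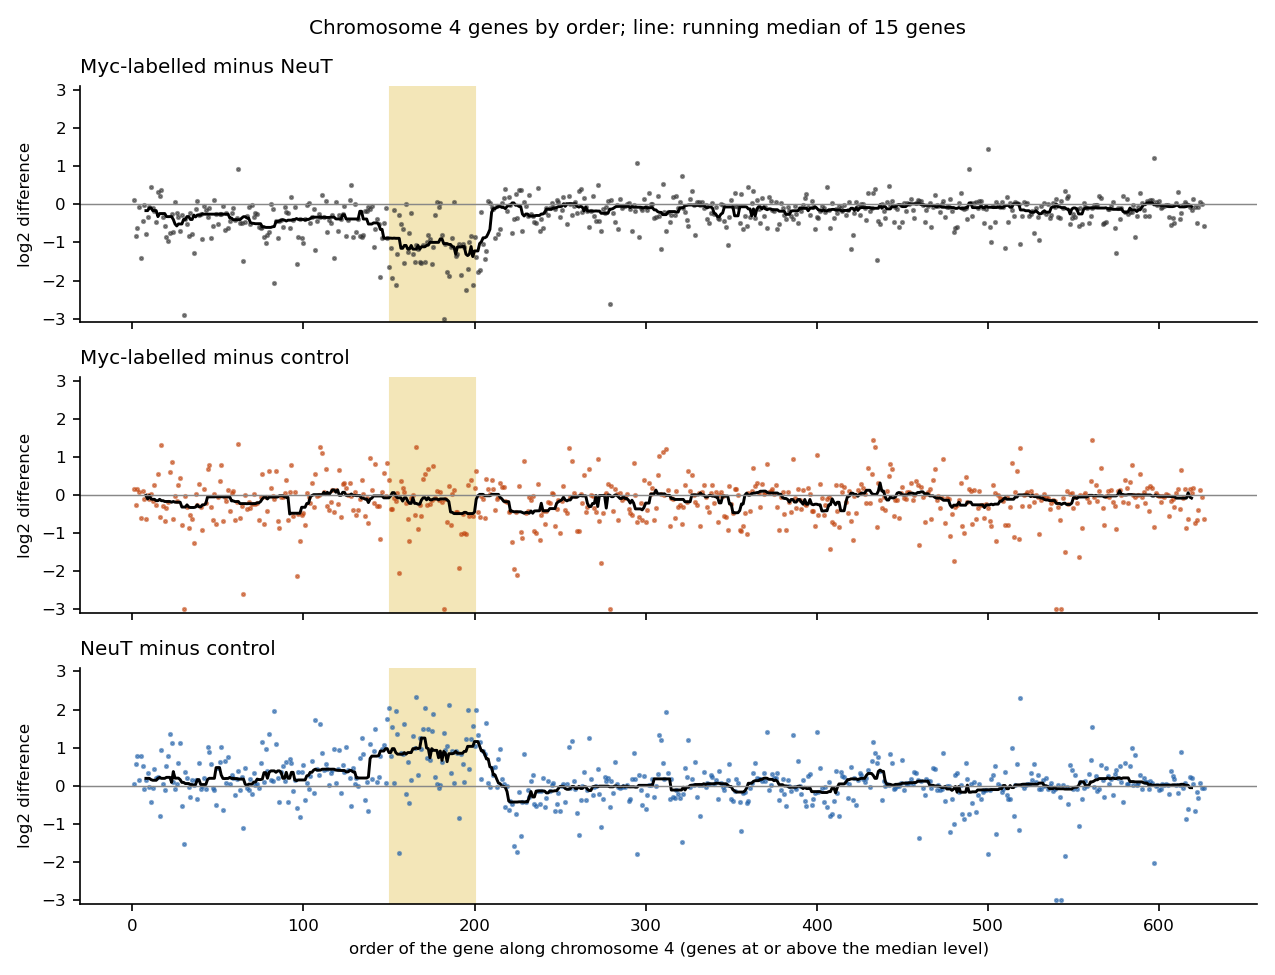
Log2 difference of 626 chromosome 4 genes at or above the median level, by gene order, for Myc-labelled minus NeuT, Myc-labelled minus control and NeuT minus control; points are genes, held at 3 where they lie beyond it (1, 5 and 2 genes), and lines running medians of 15 genes. The shaded genes, from Tmem245 to Rraga, have medians of -1.09, -0.16 and 0.89 in the 3 panels.

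Few markers of other cell types passed the test. None of 15 fibroblast, 12 endothelial, 14 leukocyte or 12 kidney tubule markers passed limma's test, with 0, 0, 1 and 0 at an unadjusted p under 0.05 and 0, 0, 1 and 1 passing when the 6 arrays alone were fitted or control array 3 was left out. The list medians lay between -0.02 and 0.01. Their mean levels in the Myc-labelled arrays were 5.67, 5.60, 5.70 and 5.79, below the median of all genes. Of 12 smooth muscle markers, 3 fell, namely the actin-binding genes Smtn (-1.25), Tpm1 (-0.47) and Tpm2 (-1.55). Of 19 neuronal and neuroendocrine genes, Gap43 and Map2 (-1.69) fell and Stmn2 (1.08) rose. Of 37 HOX genes, 1 fell.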

How the data were processed

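Total RNA of 15 samples, 3 in each of 5 groups, was amplified, labelled with biotin and read on Affymetrix arrays. The deposited table holds log2 values per probe set that the authors made with Affymetrix Expression Console 1.1 and RMA, per the submitters' processing notes; the build of their annotation is not given in the sources used here. Array values give no read depth, and the number of arrays limits the precision. Genes were named from the platform annotation: 21789 probe sets had 1 gene, 1621 several and 12146 none, and the brightest single-gene probe set stood for each of 19938 genes.

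All 15 arrays entered one limma 3.58.1 fit (R 4.3.3) with 5 group means and 10 residual degrees of freedom, and the contrast was Myc-labelled minus NeuT, two-sided, with Benjamini-Hochberg adjustment over all genes. The fit was tested on simulated data. The genes named are the 15 furthest in each direction, with an adjusted p under 0.05, a higher mean at or above the median level, no overlap between the arrays and no provisional name, then Myc, Erbb2 and up to 6 members of each of 42 gene lists by smallest p, or any member of a list of 20 or fewer; other genes were singled out after their values were seen. The members and lists were chosen with earlier results of these data known. The 20 alternatives are given at the end.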

Additional observations from a re-analysis of the deposited data

Results flagged for a closer look

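Probe sets outside the gene comparison also separated the lines. Of 1621 probe sets that read several genes, 30 were at least 2-fold higher and 5 at least 2-fold lower in the Myc-labelled arrays (2.16% of those tested). In 6 of these 35 the higher line also lay at least 2-fold above the control mean. Of 12146 probe sets with no gene name here, 61 were higher and 100 lower (1.33%). In 41 of them the higher line lay that far above control, 13 in the Myc-labelled and 28 in the NeuT arrays. What these probe sets read was not analysed here.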

How the results depend on the processing

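The 20 other settings left out each of the 6 arrays or control array 3, fitted the 12 line arrays or the 6 arrays (also with the replicate block), left out dim genes, centred on medians, normalized by quantiles, averaged probe sets, tested every single-gene probe set, used a trended robust variance, array weights or the replicate block, tested against 1.5-fold, or set no minimum fold. None of the 208 passing genes that were followed changed its direction, and the other passing genes were not followed. The 30 leading genes kept their calls under every setting that gave them a value (19, or 18 for Adtrp, Eif2s3y, Defb41 and Sh2d1b1, which the filter on dim genes left out). Of 101 genes at least 2-fold apart that were followed, 4 lost the call under a setting other than the test against 1.5-fold: Cavin2, Cxcl3, Lurap1l and Tceal1. Cxcl3 lost it without Myc-labelled array 2 or 3 or NeuT array 1 or 3 (adjusted p up to 0.0963). With no minimum fold, 1393 genes were higher and 1586 lower. Tested against a 1.5-fold change, 89 were higher and 223 lower. The 169 listed genes that passed became 262 with array weights and 50 in the test against 1.5-fold. Leaving out 1 array gave 146 to 193 genes higher and 299 to 305 lower, and 128 to 149 listed genes. Samples with the same replicate number in both groups correlated in their deviations from the group means with r of 0.12, 0.09 and 0.084. Each was above the correlations with other numbers. The deviations within a group cancel out for each gene, so these correlations depend on each other. A pairing is thus only a hint from the data and not from the design. With the replicate number as a block 163 genes were higher and 301 lower. The fit of the 6 arrays alone called 475 genes, 461 of them shared with the 463 of the 15-array fit; a fit of the 6 arrays with the block was added after seeing the data. Of the 208 passing genes followed, 56 lost the call under at least 1 setting other than the test against 1.5-fold, so changes under 2-fold rest on less.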
